A study of Mus musculus with 15 samples.

Results

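The 10 genes described here encode the laminin chains, nidogens and perlecan of the islet basement membrane, together with heparanase, the enzyme that cuts one of its polysaccharides. They were chosen by symbol: Lama2, Lama4, Lama5, Lamb1, Lamb2, Lamc1, Nid1, Nid2, Hspg2 and Hpse, which are 10 of the 48709 genes in the deposited count table. The choice used no measured value as a rule, but earlier results of these data were known when it was made. All 10 passed the filter on low counts, as did 16554 genes in all. Between 4 and 12 weeks of age Hpse rose 5.39-fold in islets of NOD mice, 5 of the structural genes rose by smaller amounts, and Nid2 fell. Of all genes tested, 53.5% passed the same limit between these ages, an adjusted p of 0.05 in edgeR. Of the genes named here, Hpse, Lamb2 and Nid2 passed it whichever mouse was left out.

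A basement membrane is a thin sheet of extracellular matrix built on a network of laminin and a network of type IV collagen. Each laminin is a trimer of an alpha, a beta and a gamma chain, and the alpha chain carries the main binding sites for cell-surface receptors. Nidogens link laminin to type IV collagen, and perlecan, the product of Hspg2, carries heparan sulfate chains that bind growth factors and cytokines. Heparanase is an endoglycosidase that cleaves heparan sulfate. In the pancreas, a basement membrane surrounds the islet and another accompanies its capillaries, and leukocytes must cross the outer one to enter the islet.

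The study followed the gradual development of insulitis, the leukocyte infiltration of the islets, in female non-obese diabetic (NOD) mice of the substrain NOD/ShiLtJ. Islets were isolated by collagenase digestion, a density gradient and hand-picking, and their polyA RNA was sequenced in bulk. The groups were 3 mice each at 4, 6, 8, 10 and 12 weeks of age, 15 mice in all. Every mouse had the same NOD genotype and none of the groups received a treatment, so age was the difference between groups, and no diabetes-resistant strain is compared here. Collagenase digests matrix around the islet, and what it removed of adherent cells cannot be read from these libraries.

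Counts per library totalled between 25407492 and 41616275 (median 28004882), so that 3 counts corresponded to 0.0754 to 0.128 CPM, the counts of a gene scaled to its library. Levels below are CPM normalized by the trimmed mean of M-values (TMM) unless TPM is named. All 8 endocrine markers tested, insulin and glucagon genes included, were expressed, and 7 of them were lower at 12 than at 4 weeks, with summed levels of 303650 to 337386 CPM at 4 weeks and 148197 to 188430 CPM at 12 weeks. All 11 leukocyte markers measured were higher at 12 weeks. A pair of libraries, 12 weeks replicate 1 and 6 weeks replicate 2, stood apart in 8 intestinal epithelium markers. Their mean log2 CPM was 3.42 and 1.04 there, against -1.93 to -1.52 in the other 13 libraries, and the sums were 298 CPM against 37.0 and 45.6 CPM at 12 weeks and 110 CPM against 78.6 and 83.8 CPM at 6 weeks. In bulk islets a change in the number of cells of a type and a change in the RNA per cell cannot be told apart.

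Windows of 3 of the genes are shown with the 250 bases before their RefSeq start, because Hpse had the largest change, Nid1 rose while Nid2 fell, and Lama5 was the gene called between 8 and 10 weeks. The sequences are from RefSeq on GRCm38.p6, the build known as mm10, and run 5′ to 3′ on the strand of the gene. RefSeq entries were matched for 7 of the 10 genes. For Lama2, Lamb1, Lamb2 and Hspg2 the window reached 34 to 250 bases into the gene as the deposited table places it, so those windows are not printed. Capitals mark matches, on either strand, to 6 short motifs searched. These were the TATA box as TATAAA, the GC box as GGGCGG, the CCAAT box, the AP-1 site as TGANTCA, the EGR site as GCGGGGGCG and the ETS site as CCGGAAGT. The GC box and EGR letters can overlap.
Hpse, chr5:100719717-100719966, minus strand: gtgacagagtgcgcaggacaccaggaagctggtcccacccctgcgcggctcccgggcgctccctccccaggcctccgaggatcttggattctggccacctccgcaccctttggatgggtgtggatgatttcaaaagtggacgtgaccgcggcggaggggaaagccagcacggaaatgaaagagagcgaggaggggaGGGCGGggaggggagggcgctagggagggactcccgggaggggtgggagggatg
Nid1, chr13:13437352-13437601, plus strand: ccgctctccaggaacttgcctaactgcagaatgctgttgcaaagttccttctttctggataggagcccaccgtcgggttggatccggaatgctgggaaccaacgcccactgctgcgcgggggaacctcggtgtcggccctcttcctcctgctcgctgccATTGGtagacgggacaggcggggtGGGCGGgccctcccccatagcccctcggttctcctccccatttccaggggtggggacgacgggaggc
Lama5, chr2:180225860-180226109, minus strand: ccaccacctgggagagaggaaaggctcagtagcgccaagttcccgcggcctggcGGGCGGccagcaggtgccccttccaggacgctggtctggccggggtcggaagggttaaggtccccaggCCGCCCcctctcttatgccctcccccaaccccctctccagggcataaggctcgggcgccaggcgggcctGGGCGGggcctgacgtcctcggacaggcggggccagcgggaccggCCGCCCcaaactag
The Hpse window held 1 GC box, the Nid1 window 1 GC box and 1 CCAAT match on the opposite strand, and the Lama5 window 4 GC boxes. Of 32851 promoter windows of the same length, 32.7% held a GC box and 33.8% a CCAAT box. None of the 3 windows held the TATA box, AP-1, EGR or ETS letters, which were found in 12.4%, 6.75%, 2.57% and 2.88% of all windows. A match to these letters is a description of the sequence and not a binding site.

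Per transcript length, laminin gamma 1 and nidogen 1 were the most abundant of the 10 mRNAs at 4 weeks, and laminin alpha 2 was the least. The TPM values at 4 weeks were 25.5 ± 2.45 for Nid1 and 23.9 ± 0.569 for Lamc1 (SD, n = 3 here and below), whose ranges overlapped. Nid2 followed at 16.0 ± 1.24, then Hspg2 at 10.2 ± 0.812, Lamb1 at 8.07 ± 0.330, Lamb2 at 6.82 ± 0.645 and Lama4 at 5.87 ± 0.0694, each apart from its neighbour in every mouse. Lama5 at 3.60 ± 0.206 and Hpse at 2.75 ± 1.19 overlapped, and Lama2 was at 1.06 ± 0.210. Among the alpha chains the order was thus Lama4, Lama5, Lama2, the first being the chain known from vascular basement membranes and the second a chain of mature epithelial and endothelial ones.

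By 12 weeks the order had changed most for Hpse, which had passed 5 genes, and for Nid2, which had dropped behind 4. Nid1 was at 47.2 ± 9.34 TPM and Lamc1 at 32.3 ± 5.11 TPM. The next values were 20.3 ± 5.90 for Hspg2, 19.3 ± 0.872 for Hpse, 16.3 ± 4.27 for Lamb2, 13.4 ± 2.05 for Lamb1, 11.6 ± 1.36 for Nid2 and 8.87 ± 2.25 for Lama4. Neighbours among these 6 overlapped, and Lama5 at 5.78 ± 1.38 and Lama2 at 2.29 ± 0.774 lay below them. TPM values share one total per library, and the endocrine transcripts that fell took a large part of it. Changes with age were therefore tested on TMM-normalized counts and not on TPM.

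**Figure D1:**
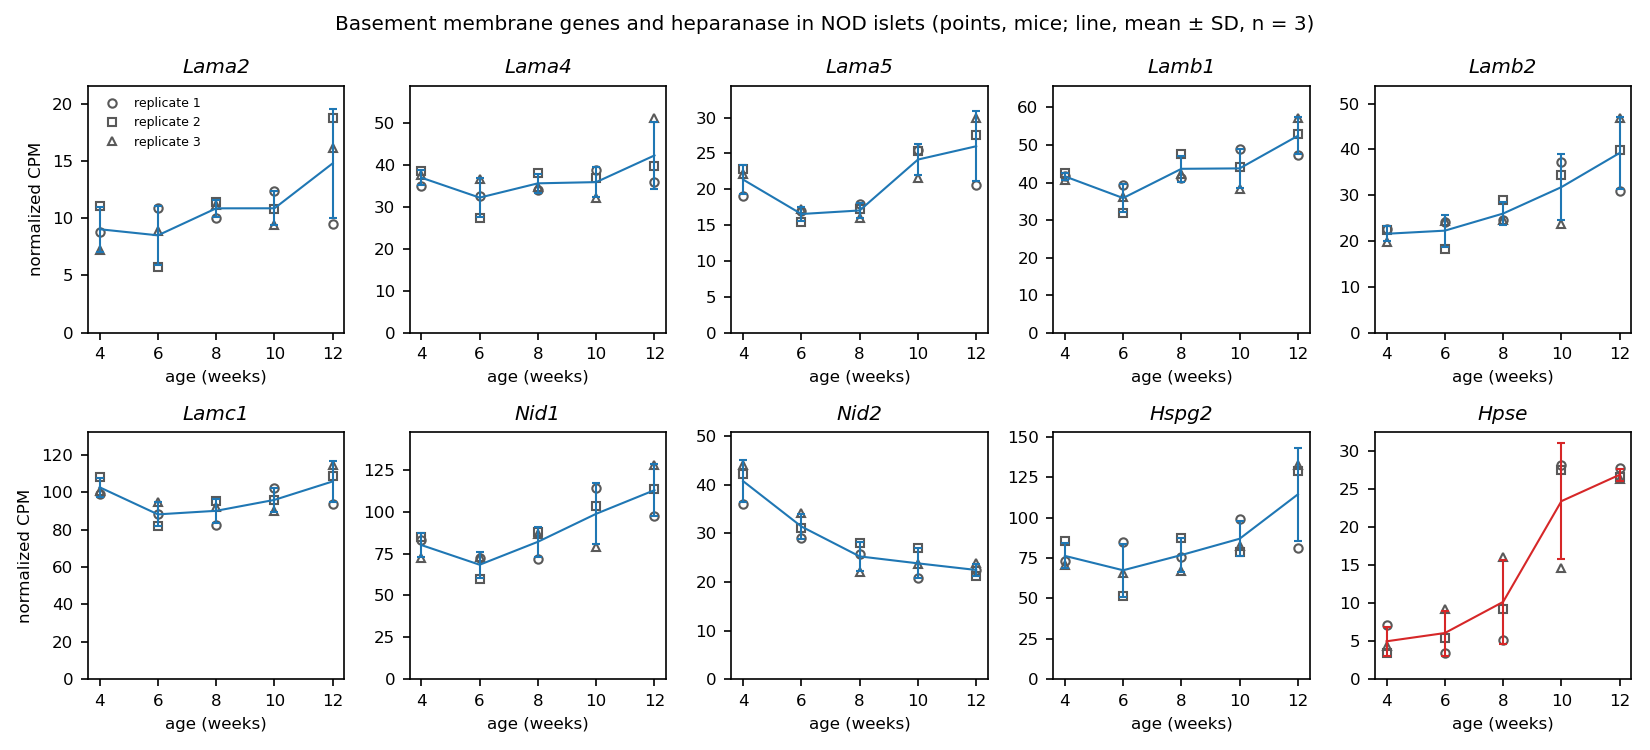
Normalized CPM (vertical axis, from 0) against age in weeks for each of the 10 genes; open symbols are the 3 mice of an age and the line joins the means, with SD. Hpse climbed from 4.98 CPM on average at 4 weeks to 26.9 CPM at 12 weeks, Nid2 declined from 40.8 to 22.5 CPM, and the other 8 genes were lowest or near their lowest at 6 weeks.

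Comparing the 2 extreme ages asks which components of the membrane differed between young islets and islets with established insulitis. At 12 against 4 weeks, 7 of the 10 genes passed a Benjamini-Hochberg adjusted p of 0.05 in edgeR's quasi-likelihood test, against 53.5% of all genes tested. The genes that rose were Hpse, Hspg2, Lama2, Lamb1, Lamb2 and Nid1, and Nid2 fell, while over all genes 26.3% were called higher and 27.2% lower. The median log2 fold change was 0.41 over the 10 genes, 0.33 over the 9 structural genes and -0.05 over all genes tested. The study set its limits at a 1.5-fold change and a p of 0.05. With these limits, applied here to the unadjusted p and called the study's threshold below, Hpse, Lama2 and Lamb2 were higher and Nid2 was lower, 4 genes in all, against 31.9% of all genes.

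Hpse, Lamb2 and Nid2 kept their calls whichever mouse was left out. Without 4 weeks replicate 3, and likewise without 12 weeks replicate 3, these were the 3 genes called. Over all 16554 genes tested, 7213 and 7151 were called in these fits, against 8858 with all mice. Without 4 weeks replicate 1 or without 12 weeks replicate 2, Lama2 and Hspg2 lost their calls and 5 genes remained. Of all genes, 8022 and 8311 were called there. Without 12 weeks replicate 1, one of the pair with intestinal markers, 8 genes were called, Lama5 being added, and the log2 changes of Hspg2 and Lama2 were 0.78 and 0.95. The same 8 genes were called with both libraries of that pair left out. Of all genes, 8140 were called without 12 weeks replicate 1 and 7927 without the pair. Scaling by library totals in place of TMM moved the median of all genes from -0.05 to 0.20 and raised the share of higher genes among those called from 49.2% to 78.3%. With that scaling all 10 genes were called, 9 higher and Nid2 lower at -0.61, beside 8376 of all genes.

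**Figure D2:**
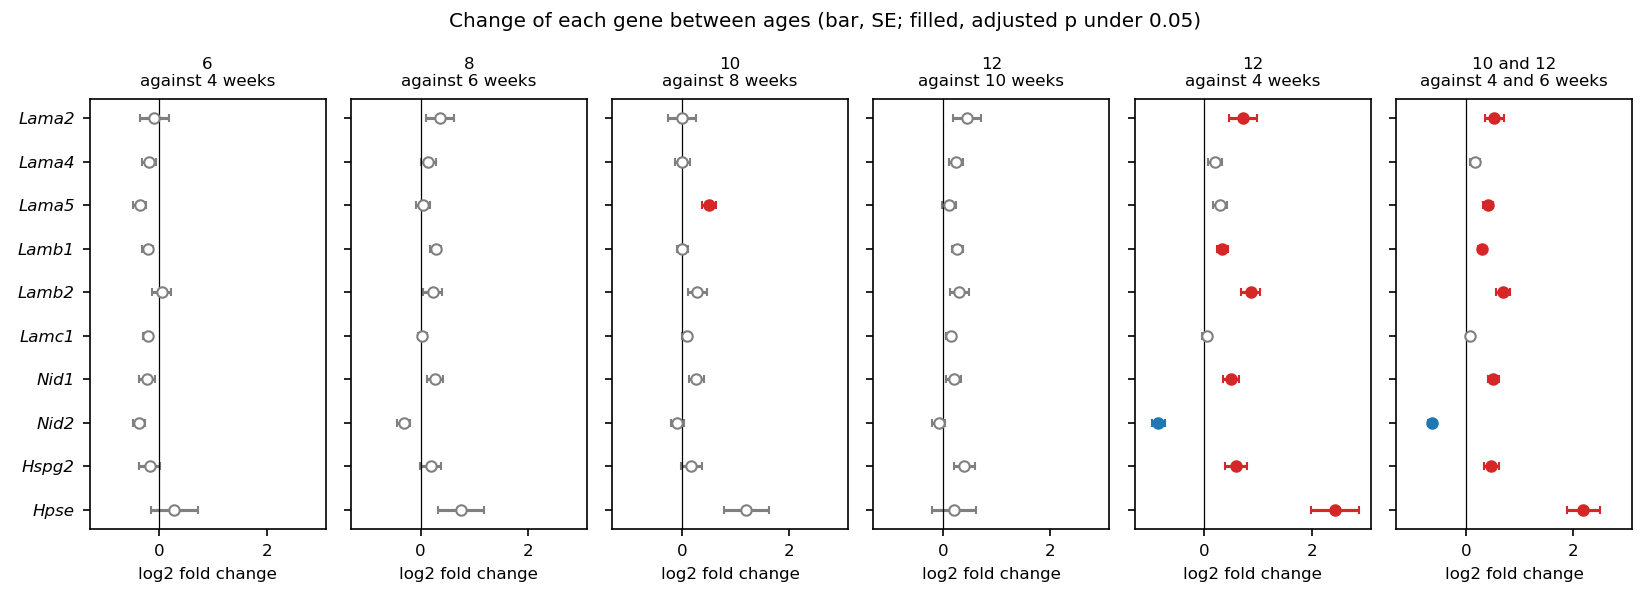
Log2 fold change (horizontal axis) with its SE for the 10 genes in 6 comparisons of ages; filled symbols have an adjusted p under 0.05, red higher and blue lower in the older mice. No gene was called at 6 against 4, 8 against 6 or 12 against 10 weeks, 1 was called at 10 against 8 weeks, 7 at 12 against 4 weeks and 8 at 10 and 12 against 4 and 6 weeks.

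Heparanase had the largest change of the 10 genes. Its levels in the 3 mice were 7.15, 3.38 and 4.41 CPM at 4 weeks, 3.49, 5.42 and 9.30 CPM at 6 weeks, 5.22, 9.24 and 16.1 CPM at 8 weeks, 28.3, 27.5 and 14.6 CPM at 10 weeks, and 27.8, 26.6 and 26.3 CPM at 12 weeks. The mice of 4, 6 and 8 weeks overlapped, 1 mouse of 10 weeks lay within the range of 8 weeks, and all 3 mice of 12 weeks lay above every mouse of 4 to 8 weeks. The rise from 4 to 12 weeks was 2.43 ± 0.44 on the log2 scale (SE, adjusted p = 0.000883, edgeR), and 79 to 191 counts per library at 4 weeks became 797 to 858 at 12 weeks. The gene, ENSMUSG00000035273, lies at chr5:100679484-100719716 on the minus strand of mm10, and no other gene in the table overlapped it.

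Hpse had its largest estimated step from 8 to 10 weeks, and the steps were not tested against each other. Its log2 change was 0.28 ± 0.44 from 4 to 6 weeks, 0.75 ± 0.43 from 6 to 8 weeks, 1.20 ± 0.42 from 8 to 10 weeks and 0.20 ± 0.41 from 10 to 12 weeks. The step from 8 to 10 weeks had an adjusted p of 0.0635 in edgeR and passed the study's threshold, where Hpse was the 1 gene of the 10 called and 13.9% of all genes were. With DESeq2, or without 8 weeks replicate 3 or 10 weeks replicate 3, that step had an adjusted p of 0.0163, 0.0247 and 0.0245. In the other 11 of 14 alternatives it was not called, with an adjusted p of up to 0.211 in edgeR. Leaving out 1 mouse, its log2 change ranged from 0.89 to 1.70.

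Hpse varied with the leukocyte markers from mouse to mouse. The summed level of the 11 leukocyte markers, which include Ptprc, T-cell, B-cell and macrophage genes, was 36.5 to 193 CPM at 4 weeks, 56.3 to 220 CPM at 6 weeks, 142 to 801 CPM at 8 weeks, 802 to 1918 CPM at 10 weeks and 1604 to 1866 CPM at 12 weeks. The highest Hpse at 4, 6, 8 and 10 weeks was in the mouse with the highest leukocyte sum of its age. The lowest Hpse at 6, 8 and 10 weeks was in the mouse with the lowest sum. At 4 weeks the lowest Hpse was in the mouse with the middle sum. At 12 weeks the order was reversed, the highest Hpse of 27.8 CPM being in the mouse with the lowest sum and the lowest of 26.3 CPM in the mouse with the highest.

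Across the 15 mice, Pearson's r between log2 Hpse and the mean log2 level of the leukocyte markers was 0.964, and it was 0.865 after the mean of each age was subtracted. These points share the ages, the libraries and their scaling. Per 100 CPM of leukocyte markers, Hpse stood at 3.71 to 12.1 CPM at 4 weeks and 4.23 to 6.19 CPM at 6 weeks. It stood at 1.66 to 3.67 CPM at 8 weeks and 1.47 to 1.97 CPM at 10 weeks. At 12 weeks the range was 1.41 to 1.73 CPM. Mesenchymal and lymphoid stroma markers also rose with age, with r of 0.917 and 0.955 to Hpse. After the mean of each age was subtracted, these were 0.603 and 0.799. The mean of the endocrine markers had r of -0.933 with Hpse, and -0.590 after that subtraction. The part of any of these cells in the result was not tested.

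**Figure D3:**
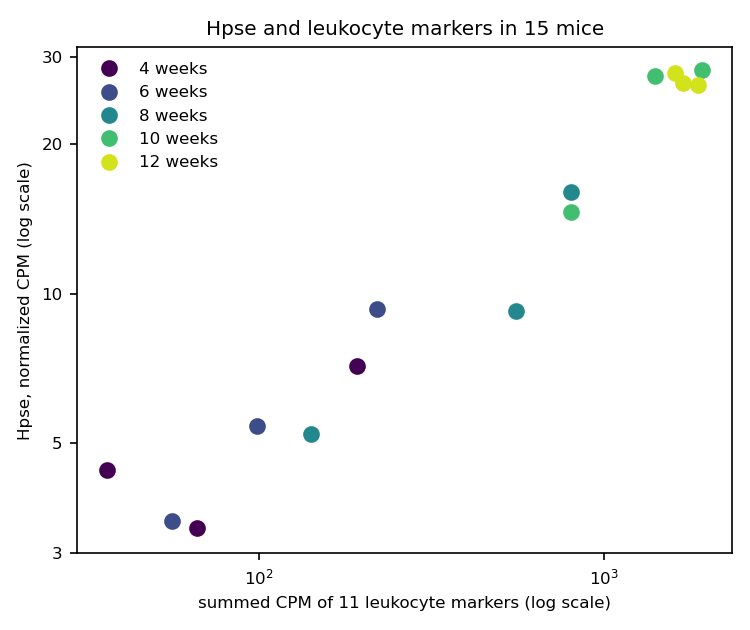
Normalized CPM of Hpse against the summed CPM of 11 leukocyte markers in each of the 15 mice, both axes on a log scale, coloured by age. The mice of 4 and 6 weeks sit below 10 CPM of Hpse, and all of the mice with a leukocyte sum above 1000 CPM sit above 26 CPM.

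The 2 nidogens went in opposite directions. Nid1, the widely expressed linker between laminin and type IV collagen, was at 83.0, 85.0 and 72.1 CPM at 4 weeks and at 97.2, 113 and 128 CPM at 12 weeks. Nid2, its paralog with an overlapping role, was at 36.0, 42.2 and 44.1 CPM at 4 weeks and at 22.4, 21.2 and 23.8 CPM at 12 weeks. Neither gene's mice overlapped between these ages, with Nid1 higher and Nid2 lower in all 3 older mice. At 12 against 4 weeks, 5 of the 10 genes did not overlap (Hpse, Lamb1, Lamb2 and Nid1 higher, Nid2 lower), against 64.2% of all genes.

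Nid1 rose by 0.50 ± 0.14 on the log2 scale (adjusted p = 0.0116, edgeR). Nid2 fell by 0.86 ± 0.12 on that scale (adjusted p = 0.000256, edgeR). Nid2 was lower on average at each next age. Its levels were 29.0, 31.1 and 34.1 CPM at 6 weeks and 25.8, 27.9 and 22.1 CPM at 8 weeks. At 10 weeks they were 20.8, 27.0 and 23.7 CPM. The first 2 steps each left the groups apart, as they did for 17.6% and 19.3% of all genes, and neither was called. The mice of 8, 10 and 12 weeks overlapped. The log2 differences of those first steps were -0.38 ± 0.12 and -0.31 ± 0.12, with adjusted p of 0.285 and 0.210 in edgeR.

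Nid2 (ENSMUSG00000021806, chr14:19751257-19811787, plus strand) shares its last 386 bases, chr14:19811402-19811787, with the antisense gene 2700060E02Rik, and it is not stated whether the counting used strand. That neighbour had 20796 counts over the 15 libraries, against 12500 for Nid2, and its log2 difference between 12 and 4 weeks was 0.09 ± 0.08 (adjusted p = 0.379, edgeR). Nid1 (ENSMUSG00000005397) lies at chr13:13437602-13512275 on the plus strand and overlapped no gene in the table.

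Of the beta and gamma chains, both beta chains rose and the gamma chain did not pass the test. Lamb2, the laminin beta 2 chain found in vessels, kidney filter and neuromuscular junction, was at 22.7, 22.3 and 19.7 CPM at 4 weeks, at 24.2, 18.2 and 24.3 CPM at 6 weeks and at 24.6, 28.8 and 24.5 CPM at 8 weeks. It was at 37.3, 34.4 and 23.6 CPM at 10 weeks and at 31.0, 39.9 and 46.8 CPM at 12 weeks. All mice of 12 weeks lay above all mice of 4 to 8 weeks, and 1 mouse of 10 weeks remained among the younger ones. The log2 rise from 4 to 12 weeks was 0.86 ± 0.18 (adjusted p = 0.00202, edgeR).

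Lamb1, the more widely used laminin beta chain, was at 41.8, 42.4 and 40.7 CPM at 4 weeks and at 47.4, 52.9 and 57.2 CPM at 12 weeks. The groups did not overlap, and the log2 rise was 0.33 ± 0.10 (adjusted p = 0.0160, edgeR). Lamc1, the gamma chain shared by most laminins, was at 98.9, 109 and 101 CPM at 4 weeks and at 93.8, 109 and 115 CPM at 12 weeks. Those groups overlapped, and the log2 difference of 0.04 ± 0.09 (adjusted p = 0.693, edgeR) had the smallest size among the 10 genes. Its lowest mouse over all ages was at 81.8 CPM, at 6 weeks.

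Among the alpha chains, Lama2 was the one called at 12 against 4 weeks, and this depended on the fit. Lama2 lost its call when only these ages were fitted and with a replicate block, and Lama5 gained one with DESeq2 and with DESeq2's size factors in edgeR. Lama2, the alpha chain of muscle and peripheral nerve, was at 8.79, 11.1 and 7.20 CPM at 4 weeks and at 9.50, 18.7 and 16.1 CPM at 12 weeks. One older mouse lay within the range of the younger ones, and the log2 rise was 0.71 ± 0.26 (adjusted p = 0.0359, edgeR). Lama4 was at 34.9, 38.4 and 37.5 CPM at 4 weeks and at 35.9, 39.6 and 51.1 CPM at 12 weeks, a log2 difference of 0.19 ± 0.13 (adjusted p = 0.230, edgeR). The mice of these 2 ages overlapped.

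Like Lamc1, Lama5 was lower on average at 6 and 8 weeks than at the other ages. Its levels were 19.1, 22.9 and 22.1 CPM at 4 weeks, 17.0, 15.4 and 17.3 CPM at 6 weeks, 17.9, 17.3 and 16.0 CPM at 8 weeks, 25.5, 25.4 and 21.6 CPM at 10 weeks and 20.6, 27.5 and 29.9 CPM at 12 weeks. All mice of 6 and 8 weeks lay below all others, and how many other genes did the same was not counted. From 4 to 6 weeks Lama5 differed by -0.37 ± 0.13 on the log2 scale (adjusted p = 0.375, edgeR). It was the gene called at 10 against 8 weeks, where it rose by 0.50 ± 0.13 on the log2 scale (adjusted p = 0.0298, edgeR), and where 16.8% of all genes were called.

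That call depended on single mice, and so did those of all other genes at 10 against 8 weeks. In each fit named next, 0 of the 16554 genes tested were called, against 2776 with all mice. Without 8 weeks replicate 1 or 2, or without 10 weeks replicate 1 or 2, the adjusted p of Lama5 was 0.116, 0.0716, 0.112 and 0.117 in edgeR, with log2 differences of 0.54, 0.51, 0.46 and 0.47. At 12 against 4 weeks the log2 difference of Lama5 was 0.28 ± 0.13 (adjusted p = 0.0757, edgeR).

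Perlecan, the heparan sulfate proteoglycan of the matrix, rose, with a wide spread in the oldest mice. Hspg2 was at 72.9, 85.3 and 70.9 CPM at 4 weeks, at 84.7, 51.7 and 66.0 CPM at 6 weeks and at 76.0, 87.7 and 67.1 CPM at 8 weeks. It was at 99.4, 78.9 and 82.8 CPM at 10 weeks and at 81.5, 129 and 133 CPM at 12 weeks. At 12 weeks 2 mice lay above every other mouse and the remaining one lay within the range of 4 weeks. The log2 rise from 4 to 12 weeks was 0.58 ± 0.20 (adjusted p = 0.0256, edgeR).

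Grouping the mice of 10 and 12 weeks against those of 4 and 6 weeks gave 6 mice on each side. In edgeR 8 of the 10 genes were called, against 63.8% of all genes: the 7 named at 12 against 4 weeks and Lama5, which rose by 0.42 ± 0.09 on the log2 scale (adjusted p = 0.00144). The same 8 were called with both libraries with intestinal markers left out, and Lama4 was added when 12 weeks replicate 1 alone was. Of all genes, 9767 and 10381 were called in these fits, against 10568. Lama2 lost its call without 4 weeks replicate 3, 6 weeks replicate 2, 10 weeks replicate 1 or 12 weeks replicate 2. The rises of Hpse, Lamb2 and Nid1 were 2.19 ± 0.31, 0.69 ± 0.13 and 0.51 ± 0.10, and Nid2 fell by 0.63 ± 0.08. Lama4 and Lamc1 were the genes not called, with adjusted p of 0.114 and 0.252. The study's threshold was passed by Hpse, Lamb2 and Nid2, against 30.2% of all genes. Hpse, higher, and Nid2, lower, were the 2 genes whose 6 older mice all lay apart from the 6 younger ones, against 36.7% of all genes. This comparison shares its mice with that of 12 against 4 weeks.

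Between consecutive ages, few differences passed a test. At 6 against 4 weeks none of the 10 genes was called in edgeR, against 0.0906% of all genes, and none passed the study's threshold, against 2.9%, although 8 of the structural genes had values below 0 on the log2 scale, from -0.09 for Lama2 to -0.38 for Nid2. Lama5, Lamb1, Lamc1 and Nid2 did not overlap there, all lower at 6 weeks, against 17.6% of all genes. At 8 against 6 weeks none was called by adjusted p, against 0% of all genes, where 2983 genes had an unadjusted p under 0.05 in edgeR and DESeq2 called 558 genes. None passed the study's threshold there, against 9.82%, and Lamb1 and Lamb2, higher, and Nid2, lower, did not overlap, against 19.3%. At 10 against 8 weeks Lama5 was the 1 gene without overlap, against 32.7%. At 12 against 10 weeks none was called by adjusted p, against 0% of all genes, where 1245 genes had an unadjusted p under 0.05 and DESeq2 called 12. None passed the study's threshold, against 2.17%, and every gene's mice overlapped, with 9.82% of all genes apart. The joint test over the 5 ages called 7 of the 10 genes, against 56% of all genes: Hpse, Hspg2, Lama5, Lamb1, Lamb2, Nid1 and Nid2.

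Ratios between 2 genes of the same library do not depend on how libraries are scaled. In all 5 were compared with the exact permutation test, two-sided, for which 3 against 3 mice cannot give a p below 0.1 and 6 against 6 mice cannot give one below 0.00216. The number of Nid1 counts per Nid2 count had geometric means of 1.97, 2.17, 3.25, 4.12 and 4.99 at 4, 6, 8, 10 and 12 weeks. The 3 mice ranged from 1.63 to 2.31 at 4 weeks and from 4.34 to 5.38 at 12 weeks, with no overlap. At 10 and 12 against 4 and 6 weeks the log2 ratio was higher by 1.13 in the older mice (exact p = 0.00216, adjusted over the 5 ratios 0.00541), and all 6 older mice lay above all 6 younger ones. Nid2 alone also left these groups of 6 apart. The exact p at 12 against 4 weeks was 0.1.

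Heparanase also rose relative to the perlecan mRNA. Hpse counts per Hspg2 count had geometric means of 0.0625, 0.0850, 0.120, 0.260 and 0.241 at the 5 ages in order, and the log2 ratio was higher by 1.78 at 10 and 12 weeks (exact p = 0.00216, adjusted p 0.00541). The lowest of the 6 older mice was at 0.176 and the highest of the 6 younger at 0.141, so the groups did not overlap. Hpse alone also left these groups apart.

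The other 3 ratios moved less. Lamb1 per Lamb2 had a geometric mean of 1.93 at 4 weeks and 1.35 at 12 weeks, and at 10 and 12 weeks its log2 value was lower by 0.36 (log2 difference -0.36, exact p = 0.00866, adjusted p 0.0130). Hspg2 per Lamc1 had a geometric mean of 0.741 at 4 weeks and 1.06 at 12 weeks, and the log2 difference between the older and younger 6 mice was 0.39 (exact p = 0.0108, adjusted p 0.0130). Lama4 per Lama5 had geometric means of 1.73, 1.93, 2.08, 1.48 and 1.62 at the 5 ages, with a log2 difference of -0.24 at 10 and 12 against 4 and 6 weeks (exact p = 0.0130, adjusted p 0.0130). Older and younger mice overlapped in each of these 3.

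**Figure D4:**
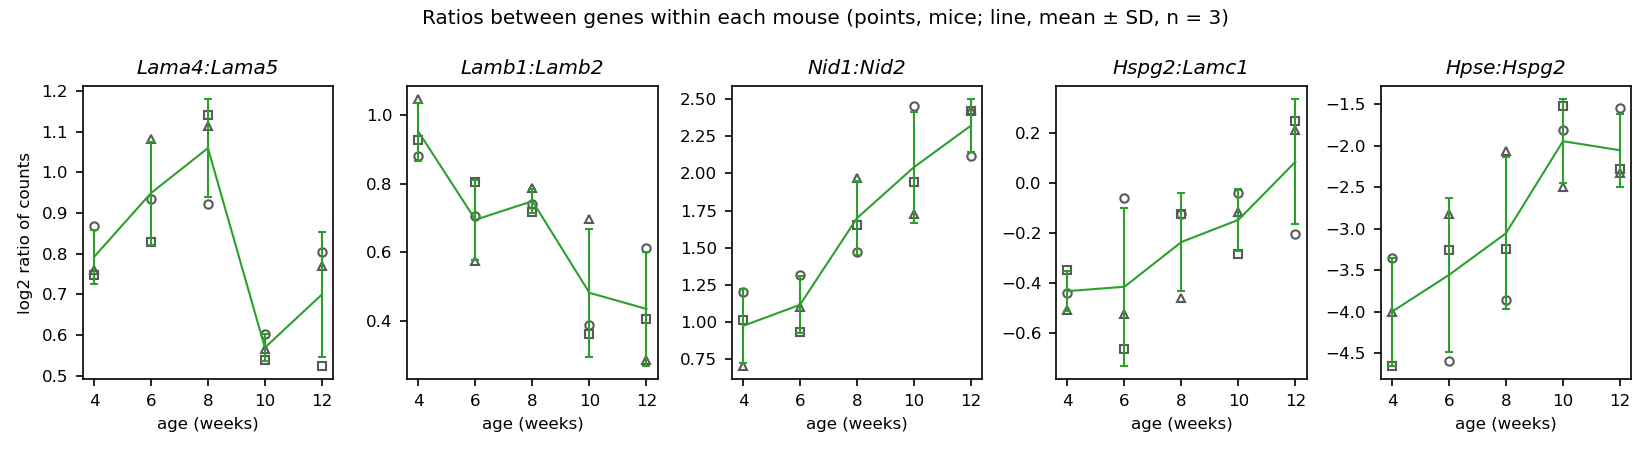
Log2 ratio of the counts of 2 genes (vertical axis, a separate scale per panel) against age in weeks; symbols are mice and the line joins the means, with SD, n = 3. The Nid1:Nid2 ratio was higher at every next age on average, from 1.97 to 4.99 as geometric means, while Lama4:Lama5 was highest at 8 weeks and lowest at 10 weeks.

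The structural genes other than Nid2 varied together between mice, also among mice of one age. Over the 28 pairs of these 8 genes, Pearson's r of log2 CPM in the 15 mice ranged from 0.603 to 0.940 (median 0.803), and from 0.587 to 0.941 (median 0.775) after the mean of each age was subtracted. Lamb2 and Nid1 had the highest r, 0.940, and 0.935 without the age means. Nid2 had r of -0.668 to 0.0359 with the 8 genes, and -0.188 to 0.318 without the age means. Hpse had r of 0.359 to 0.808 with them, and -0.274 to 0.465 without the age means. These are descriptions over 15 libraries that share ages and scaling.

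In each of these 8 genes, the libraries with intestinal markers, 6 weeks replicate 2 and 12 weeks replicate 1, had the lowest level of their age. After the mean of each age was subtracted, the mean of the intestinal markers had r of -0.828 to -0.567 with the 8 genes, -0.00438 with Nid2 and -0.0105 with Hpse. Without that pair, r over the 28 pairs of genes ranged from 0.0721 to 0.909 (median 0.602) in 13 mice after subtraction of the age means, the lowest being Lama2 with Lama4. The part of intestinal cells in these levels was not tested.

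Markers of cells that deposit basement membrane moved with these genes to different degrees. Of 10 mesenchymal markers, which include fibroblast and mural cell genes, 8 were higher at 12 than at 4 weeks, and their summed level was 438 to 548 CPM at 4 weeks and 999 to 1529 CPM at 12 weeks. Rgs5 and Cspg4, genes of pericytes, were the 2 not called, with log2 differences of -0.13 and -0.22. Of 8 endothelial markers 3 were higher and 1 was lower, with sums of 666 to 692 CPM at 4 weeks and 769 to 851 CPM at 12 weeks. Of 6 Schwann cell markers 4 were higher, with sums of 31.0 to 36.2 CPM and 62.1 to 76.0 CPM at these ages. None of the markers in these 3 lists was at 0 in any mouse of 4 or 12 weeks. All 6 lymphoid stroma markers were higher, with sums of 3.65 to 12.7 CPM and 359 to 580 CPM, and Glycam1, Madcam1 and Cr2 among them were at 0 in at least 1 mouse of 4 weeks. Of 4 mesothelial markers, Upk3b, Lrrn4 and Wt1 were higher, each at 0 in at least 1 mouse of 4 weeks. Msln was lower and made up most of that list's sum, which was 130 to 179 CPM at 4 weeks and 16.0 to 25.4 CPM at 12 weeks.

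The mesenchymal mean had r of 0.938 with Lamb2 and 0.923 with Nid1 over the 15 mice, and 0.852 and 0.937 without the age means. With Nid2, r was -0.860 for the lymphoid stroma mean, -0.855 for the Schwann cell mean, -0.833 for the leukocyte mean and -0.784 for the mesenchymal mean. Without the age means these were -0.316, -0.525, -0.207 and -0.130. Hspg2 had r of 0.830 with the endothelial mean, and 0.610 without the age means. The mean of the endocrine markers had r of 0.807 with Nid2, and -0.906 with Lamb2. Without the age means these were 0.252 and -0.674. The part of any of these cells in the changes of the basement membrane genes was not tested.

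The genes closest in pattern to each of the 10 were taken from all genes tested, by Pearson's r of log2 CPM over the 15 mice. For Hpse the 5 closest were Def6, Tnfrsf18, Lat2, Pdlim2 and Map4k1, with r from 0.991 to 0.987. For Nid1 they were Ppp2r2a at 0.985 and Jag1 at 0.979, for Lamb2 Dab2 at 0.970 and Shank3 at 0.969, and for Nid2 Frem2 at 0.955 and Ncapd3 at 0.953. For Lamb1 they were Wwtr1 at 0.968 and Prpf38b at 0.940, for Lama5 Utp11l at 0.931 and Senp1 at 0.930, and for Hspg2 Thsd7a at 0.929 and Kmt2d at 0.911. For Lama2 they were 9430020K01Rik at 0.928 and Hmcn1 at 0.921, for Lamc1 Notch3 at 0.911 and Sh3rf1 at 0.890, and for Lama4 Vcan at 0.892 and Tubgcp4 at 0.876.

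In all, 7 lists of other basement membrane and heparan sulfate genes were read from the same fit, 74 genes of which 71 were tested. At 12 against 4 weeks 27 were higher and 15 lower by adjusted p in edgeR, that is 38% and 21.1% of those tested, beside 26.3% and 27.2% of all genes. At 10 and 12 against 4 and 6 weeks 32 were higher and 20 lower, together 73.2% of those tested beside 63.8% of all genes. No gene of these lists was called at 6 against 4, 8 against 6 or 12 against 10 weeks, and 10 of the 71, or 14.1%, were called at 10 against 8 weeks, beside 16.8% of all genes. The values that follow are log2 differences at 12 against 4 weeks.

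Of the 5 other laminin chains 1 was called: Lamb3, the beta chain of laminin 332 in epithelia, rose by 1.25 ± 0.34 (adjusted p = 0.00789, edgeR). Of the 8 collagens 3 were higher and 2 lower. Col4a1 and Col4a2, the main type IV collagen chains, both fell, Col4a1 by 0.37 ± 0.09 (adjusted p = 0.00361, edgeR). Mean levels were 570 and 316 CPM at 4 weeks, 420 and 247 CPM at 6 weeks and 443 and 251 CPM at 12 weeks. At 6 against 4 weeks the adjusted p of both was 0.0803 in edgeR. Col4a6, a minor type IV chain, rose by 1.84 ± 0.45, Col18a1, the source of endostatin, rose by 0.97 ± 0.22, and Col15a1 was the other one higher. The medians of these 2 lists were 0.36 and -0.02, beside -0.05 for all genes.

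Of 10 other basement membrane proteins tested, 5 were higher and 2 lower, with a median of 0.37. Smoc2, a matricellular protein, rose by 2.21 ± 0.50, and Fbln2, a fibulin that binds laminin and nidogen, rose by 1.35 ± 0.27. The related Fbln1 rose from 6.06 ± 0.488 CPM at 4 weeks to 17.1 ± 1.84 CPM at 12 weeks. Agrn and Tinagl1 were the others higher, and Npnt, an integrin ligand, and Ntn4 were lower. Of 10 laminin receptors 4 were higher and 1, Dag1, was lower, with a median of 0.23. The integrin subunits Itgb4, Itga1 and Itga2 rose by 2.04 ± 0.29, 0.96 ± 0.19 and 0.79 ± 0.15, and Itga6, the partner of Itgb4, was the other one higher.

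Of 9 cell-surface heparan sulfate proteoglycans tested, 5 were higher and 1 lower, with a median of 0.58. The glypican Gpc3 rose by 0.99 ± 0.30 and the syndecans Sdc1 and Sdc4 by 0.98 ± 0.23 and 0.95 ± 0.17. Sdc3 and Gpc6 were also higher, and Gpc4 was lower. Of 19 genes for heparan sulfate synthesis and sulfation, 5 were higher and 7 lower, with a median of -0.08. Within one family of sulfotransferases, Ndst3 rose by 1.93 ± 0.31 and Ndst4 fell by 1.26 ± 0.18, and Hs3st1 rose by 0.65 ± 0.19.

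Of 10 genes for heparan sulfate turnover tested, 4 were higher and 2 lower, with a median of 0.18. The 2 extracellular sulfatases that remove 6-O-sulfate groups rose, Sulf1 by 3.80 ± 0.38 (adjusted p = 0.000128, edgeR) and Sulf2 by 1.33 ± 0.26 (adjusted p = 0.00139, edgeR). Gusb, a lysosomal glycosidase, rose by 0.45 ± 0.10, Sgsh was the other one higher, and Ids and Naglu were lower. Ctsl, a protease known to activate pro-heparanase, had a difference of 0.14 ± 0.07 (adjusted p = 0.103, edgeR). Hpse2, the heparanase paralog without that enzyme activity, did not pass the filter on low counts.

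**Figure D5:**
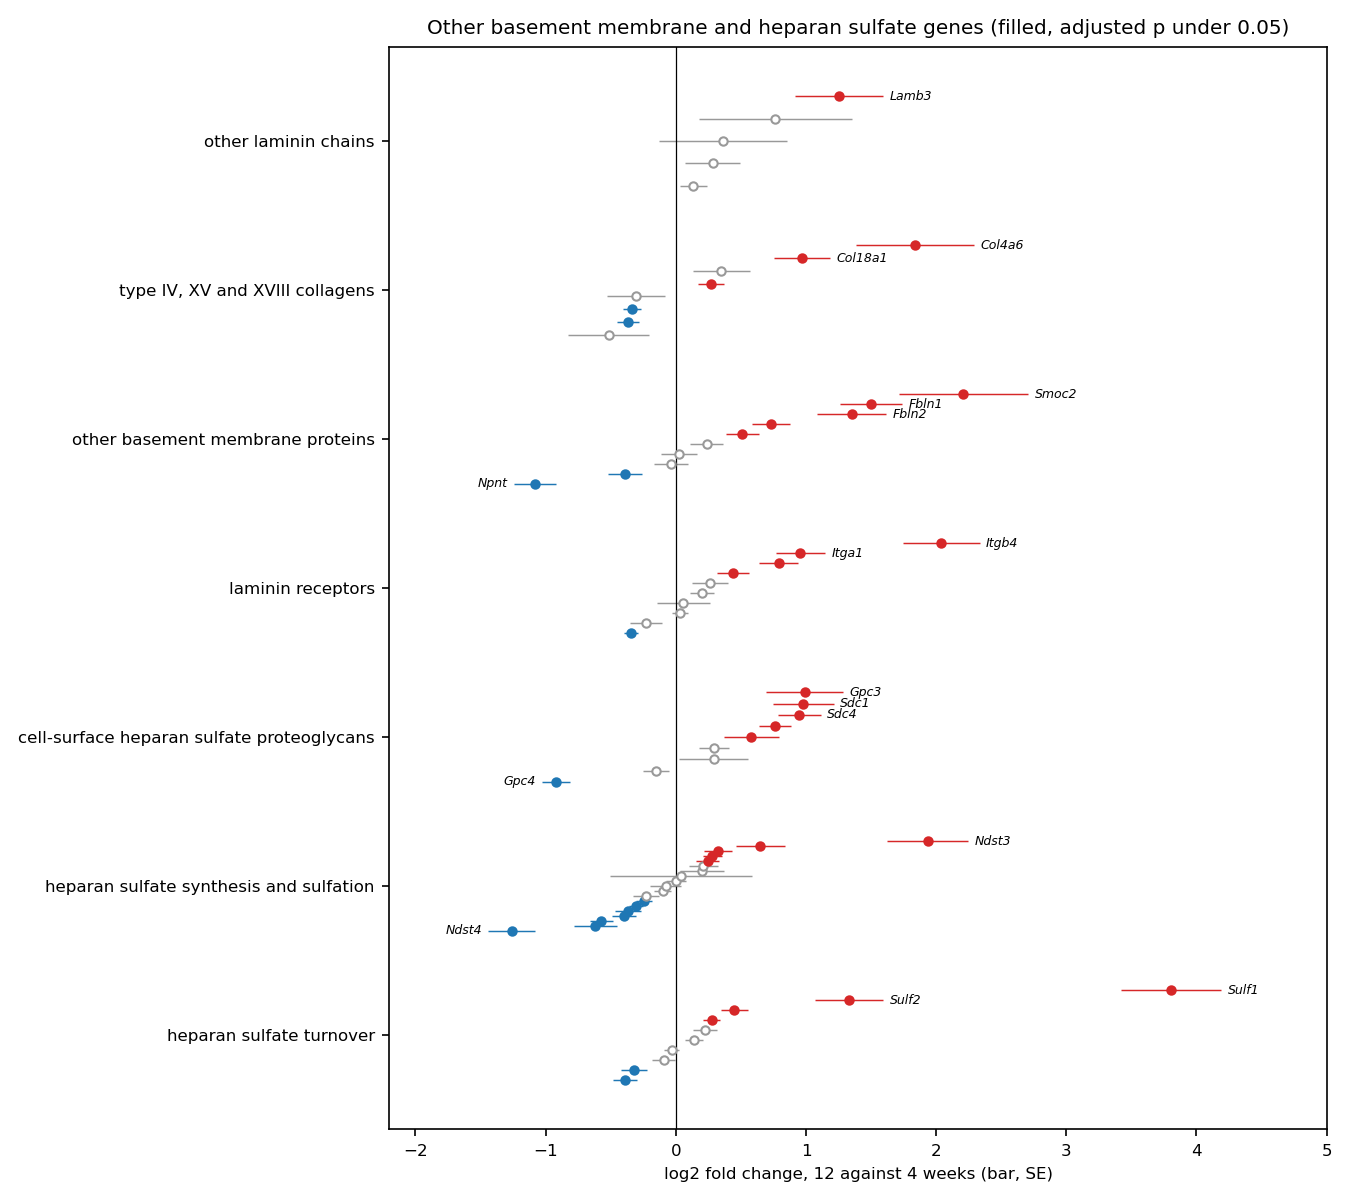
Log2 fold change at 12 against 4 weeks (horizontal axis) with its SE for the 71 tested genes of 7 lists; filled symbols have an adjusted p under 0.05, red higher and blue lower at 12 weeks, and called genes with a size above 0.9 are named. Each list holds genes that were not called, and Sulf1 at 3.80 is the value farthest from 0.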

How the data were processed

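Islet polyA RNA of 15 female NOD mice, 3 at each of 5 ages, had been sequenced as paired-end reads. The authors trimmed, aligned and counted reads in CLC Genomics Workbench with default settings, per the study's methods, on mm10 per the labels; whether counting used strand is not given in the sources used here. They deposited counts per gene and, in the same table, TPM. The other 30 per-sample columns (RPKM and CPM) were not used.

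Samples were grouped by the age in their labels. Counts were filtered with filterByExpr, TMM-normalized and fitted with edgeR 4.0.16 (R 4.3.3), one mean per age over all 15 samples, with quasi-likelihood tests and Benjamini-Hochberg adjustment over 16554 genes. Genes past the study's limits of 1.5-fold and p of 0.05, applied here to the unadjusted p, were counted as well. Log2 CPM used a prior count of 2. Ratios of counts were compared by the exact permutation test. Totals were 25407492 to 41616275 counts. The script was tested on simulated counts with known changes.

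The 10 genes, the gene lists and the tests were chosen with earlier results of these data known. All 10 genes are described; of the other lists, called genes may be named and up to 3 per list with the largest change, with Hpse2 and Ctsl, are given with values; likeness names 5 genes for Hpse and 2 for each other gene. Alternatives were DESeq2 1.42.0, its size factors, library totals, no filter, thinned libraries, fits of the compared ages alone, edgeR's exact test, a replicate block, leaving out each mouse and, chosen after seeing the data, leaving out both libraries with intestinal markers. Coordinates of 8 of the 10 genes matched GENCODE M21; Nid1 and Nid2 are given as deposited. Figures were drawn with matplotlib 3.10.9.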

Additional observations from a re-analysis of the deposited data

How the results depend on the processing

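Of 950 recomputed values for the 60 changes of the 10 genes, 874 kept their direction and side of the threshold, 25 lost a call, 16 gained one and 35 turned direction. Hpse, Lamb2 and Nid2 kept their calls at 12 against 4 weeks in all 15 alternatives, and the 5 ratios kept their directions in all of theirs. The cause of the changes below was not tested.

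At 10 against 8 weeks the 1 call by adjusted p became 0 with only the ages compared, with edgeR's exact test and with a replicate block, and 2 with DESeq2, and the 1 call by the study's threshold became 2 with library totals. Over all genes that threshold then called 2452, against 2306. With library totals the study's threshold called 6 genes at 10 and 12 against 4 and 6 weeks, against 3. Over all genes it called 4838 there, against 4999. The list counts that follow are by adjusted p at 12 against 4 weeks. The other laminin chains had 2 calls with library totals, against 1. Laminin receptors had 8 calls, against 5, with only the ages compared, and the collagens had 3, against 5, with edgeR's exact test. Of all genes, 8376, 8359 and 8026 were called in these fits, against 8858. Over all genes, edgeR's count at 10 against 8 weeks was 2776, and it was 4154 with DESeq2, 156 with the exact test, 1872 without a filter and 0 with only the ages compared. At 6 against 4 weeks it was 15, and 139, 264 and 245 with only the ages compared, the exact test and DESeq2. At 8 against 6 weeks it was 0, and 183 and 558 with the exact test and DESeq2.

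Leaving out 1 mouse, the calls by adjusted p ranged from 3 to 8 at 12 against 4 weeks and from 0 to 4 at 10 against 8 weeks, and those by the study's threshold from 0 to 1 at 8 against 6 and at 10 against 8 weeks and from 0 to 2 at 12 against 10 weeks. Over all genes, the calls by adjusted p ranged from 7151 to 8311 at 12 against 4 weeks and from 0 to 5697 at 10 against 8 weeks. Those by the study's threshold ranged from 911 to 2242 at 8 against 6 weeks. They ranged from 1288 to 3523 at 10 against 8 weeks and from 274 to 515 at 12 against 10 weeks. By adjusted p at 12 against 4 weeks, the other laminin chains had 1 to 2 calls. Leaving out both libraries with intestinal markers was an alternative chosen after seeing the data. It gave 2 calls by the study's threshold at 12 against 10 weeks, against 0, where over all genes it gave 397, against 359. By adjusted p at 12 against 4 weeks it gave 2 calls among other laminin chains, against 1, and 7927 over all genes, against 8858. Leaving out that pair also turned Lama2 to 0.13 at 6 against 4 weeks and Lama5 and Lamc1 to -0.00734 and -0.0206 at 8 against 6 weeks.

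Changes near 0 turned direction. At 10 against 8 weeks, Lama2 was -0.00206 without a filter, -0.000498 with a replicate block, -0.0893 after thinning, -0.00643 with only the ages compared and -0.00674 with the exact test, and Lamb1 was -0.00682, -0.00274 and -0.0028 with the last 3, and Nid2 was 0.0268 with library totals. Leaving out 1 mouse gave these ranges. At 6 against 4 weeks the range was -0.31 to 0.13 for Lama2, -0.0258 to 0.17 for Lamb2, -0.15 to 0.63 for Hpse. At 8 against 6 weeks the range was -0.00734 to 0.0882 for Lama5, -0.0206 to 0.0891 for Lamc1. At 10 against 8 weeks the range was -0.10 to 0.0925 for Lama2, -0.0469 to 0.0873 for Lama4, -0.0821 to 0.0909 for Lamb1, -0.18 to 0.00599 for Nid2. At 12 against 10 weeks the range was -0.18 to 0.0136 for Nid2, -0.0499 to 0.35 for Hpse, -0.00635 to 0.25 for Lama5. At 12 against 4 weeks the range was -0.0189 to 0.12 for Lamc1.

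The replicate number pairs nothing in the labels, since mice of different ages are different animals. Deviations of same-numbered mice correlated at -0.643 to 0.509 (mean -0.0795), and 7 of 30 pairs were over 0.1. A replicate block gave 6 calls at 12 against 4 weeks, without Lama2, where over all genes it gave 8328 against 8858. It gave 8 calls at 10 and 12 against 4 and 6 weeks, where over all genes it gave 10289 against 10568. At 10 against 8 weeks it gave 0, and over all genes 0 against 2776.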
